A study of Mus musculus with 16 samples.

Results

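Astrocyte genes were followed through RNA libraries of olfactory bulb microglia. The 10 genes, Gfap, Aqp4, Slc1a2, Slc1a3, Aldoc, Gja1, S100b, Aldh1l1, Ntsr2 and Agt, were taken by their symbols from a table of 57010 genes, and all 10 were among the 18227 genes with enough counts to be tested. Microglia had been pulled from dissociated olfactory bulb with magnetic beads against CD11b, a surface protein of myeloid cells, so the libraries are enriched for microglia and were not prepared to hold astrocytes. All mice were aged 2 months. WT mice were C57BL/6J. The APP-NL-G-F mice carried a knock-in of humanised App with the Swedish, Arctic and Iberian changes, expressed from the gene's own promoter. Each genotype was sampled in females and males, which gave 4 groups of 4 libraries, 16 in all, and the totals ran from 9052932 to 18117286 counts with a median of 11926833.

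Astrocytes are the glia that surround synapses and blood vessels. They take up glutamate and potassium, couple to each other through gap junctions, line vessels with endfeet rich in a water channel, and supply metabolic substrates and signalling peptides. In the olfactory bulb they fill the glomeruli where olfactory nerve fibres end, and they lie beside the ensheathing glia of those fibres. A bead-based isolation of microglia can carry over RNA or fragments of other cells, and levels of such genes in bulk libraries mix the share of other cells with their expression: fewer cells of a type and less RNA per cell cannot be told apart in these data.

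The control regions of 3 of the genes are shown. Gfap and Aldoc passed the test in females, both with less in APP-NL-G-F, and Agt followed the other members least. Aqp4 passed the test in females too, and no window was available for it. The windows come from RefSeq (build GRCm38.p6), run from 250 bases before to 30 after an annotated start, and are written 5′ to 3′ on the strand of the gene. Capitals mark matches to any of 5 motifs, each searched on both strands. The letters TATAAA stand for the TATA box near which transcription starts. Factors of the STAT family, known to drive Gfap during astrocyte differentiation, were searched as TTCNNNGAA, nuclear factor I by its partial site TTGGC and factors of the SOX family by the letters ACAATG. The last motif was the GC box, GGGCGG, of housekeeping promoters.
Gfap (chr11:102897171-102897450, minus strand): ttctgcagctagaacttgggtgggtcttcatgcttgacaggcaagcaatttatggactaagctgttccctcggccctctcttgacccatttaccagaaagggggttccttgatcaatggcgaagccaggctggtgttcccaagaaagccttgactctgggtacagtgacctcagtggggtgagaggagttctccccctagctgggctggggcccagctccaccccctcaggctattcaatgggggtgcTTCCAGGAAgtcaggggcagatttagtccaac
Aldoc (chr11:78322823-78323102, plus strand, 1 of 2 windows listed for this gene): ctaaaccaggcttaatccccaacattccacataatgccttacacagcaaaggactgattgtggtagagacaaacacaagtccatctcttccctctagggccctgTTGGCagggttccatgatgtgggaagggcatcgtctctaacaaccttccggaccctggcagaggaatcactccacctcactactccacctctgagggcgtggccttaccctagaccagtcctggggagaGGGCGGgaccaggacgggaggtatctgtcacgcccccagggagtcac
Agt (chr8:124569677-124569956, minus strand): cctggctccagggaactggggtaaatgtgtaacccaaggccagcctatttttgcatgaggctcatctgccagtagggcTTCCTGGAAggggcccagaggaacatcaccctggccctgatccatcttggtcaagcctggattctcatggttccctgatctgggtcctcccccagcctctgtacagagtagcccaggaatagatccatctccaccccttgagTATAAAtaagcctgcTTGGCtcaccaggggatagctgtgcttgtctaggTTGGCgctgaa
The Gfap window held 1 match, TTCCAGGAA, which spans the annotated start from -2 to 7. The Aldoc window held TTGGC at -146 to -142 and GGGCGG at -17 to -12. The Agt window held 4 matches, namely TTCCTGGAA at -172 to -164, TATAAA at -30 to -25 and TTGGC at -15 to -11 and again at 20 to 24. No matches overlapped each other in these windows. Windows were available for 9 of the 10 genes, all but Aqp4. Of the 9, 5 (Gfap, Slc1a3, Aldoc, Ntsr2 and Agt) had TTCNNNGAA in at least 1 window, a motif found in 7.83% of 32851 mouse windows of this length. For Aldoc this match was in its other window, which is not shown. The member counts are by gene, over 10 windows, and the percentages are by window. TTGGC was found for 5 of the 9 against 44.7% of windows, GGGCGG for 3 against 34.7%, TATAAA for 2 against 13.1% and ACAATG for 0 against 11.9%. A match is a string of letters and was not measured as a bound site.

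Levels are given as CPM, counts relative to each library's total (per 1e+06, after TMM normalisation). All 10 genes had counts in all 16 libraries, from 19 to 88 counts for Agt up to 2223 to 7488 for Slc1a2. The 10 genes together made up 499 to 1202 CPM, with group means between 636 and 894 CPM, whereas the 10 microglia markers (among them Csf1r, the receptor for colony stimulating factor) summed to 18898 to 22559 CPM. The libraries therefore carried the microglial label in every sample, with transcripts of the 10 astrocyte genes present at a low level in each. Which cells these transcripts came from was not tested.

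Divided by exon length, the order of the levels was Slc1a2, Slc1a3, Aldoc, Gfap, S100b, Aqp4, Ntsr2, Gja1, Aldh1l1 and Agt. The length is that of all annotated exons of a gene merged, which can exceed its main transcript. The order depends on it: before the division Gja1 averaged 27.8 CPM and Ntsr2 7.67 CPM. Slc1a2, the main glutamate transporter of forebrain astrocytes, averaged 21.0 ± 7.15 CPM per kb (SD, n = 16), and Slc1a3, the second astrocyte glutamate transporter, 16.3 ± 2.30 CPM per kb. Aldoc, the brain form of the glycolytic enzyme aldolase, followed at 12.9 ± 4.05 CPM per kb, and Gfap, the intermediate filament of astrocytes, at 5.73 ± 1.87 CPM per kb. S100b, a calcium-binding protein, was at 5.51 ± 1.21 CPM per kb and Aqp4, the endfoot water channel, at 3.66 ± 1.35 CPM per kb. The lower end was formed by Ntsr2, a neurotensin receptor, at 2.45 ± 0.658, Gja1, the gap junction protein connexin 43, at 2.26 ± 0.773, Aldh1l1, an enzyme of folate metabolism, at 1.10 ± 0.232, and Agt, the precursor of angiotensin, at 0.382 ± 0.163 CPM per kb. Neighbours in this order overlapped in their ranges over the libraries. Gfap was above S100b in 9 of 16 libraries, Ntsr2 above Gja1 in 12 and Slc1a2 above Slc1a3 in 14, while Aldoc was above Gfap in all 16.

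The genes lie on 8 chromosomes, with 2 pairs on the same one. In GRCm39 coordinates Gfap spans chr11:102778159-102791738 on the minus strand and Aldoc chr11:78213619-78218889 on the plus strand, and Gja1 (chr10:56253241-56278609) and S100b (chr10:76085090-76097159) lie on the plus strand of chromosome 10. Exons of Gfap, Aqp4, Aldoc and S100b were free of overlap with exons of other annotated genes. For Agt (chr8:125279301-125296716, minus strand) 30.8% of exonic bases were shared with Capn9 and Cog2 on the opposite strand, and for Ntsr2 (chr12:16703383-16710243, plus strand) 16.9% were shared with Lpin1, also opposite. The strand setting of the counting is not given in the sources used here, so reads of Agt and Ntsr2 are uncertain to that extent.

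2 libraries stood apart. WT female replicate 2 had the highest level of 9 of the 10 genes, and WT female replicates 1 and 2 were the top pair for 7 of them, the exceptions being S100b, Aldh1l1 and Agt. The summed level of the 10 genes was 1007, 1202, 739 and 630 CPM in WT females and 616, 588, 682 and 659 CPM in WT males. It was 792, 720, 499 and 532 CPM in APP-NL-G-F females and 677, 652, 529 and 810 CPM in APP-NL-G-F males. WT female replicates 1 and 2 held the 2 highest sums, and the next was APP-NL-G-F male replicate 4. Replicate 1 was the second deepest of the 16 libraries (17369899 counts) and replicate 2 the shallowest (9052932 counts), and their TMM factors, 0.922 and 0.957, were the lowest of the 16. The pooled and female genotype, interaction, sex and library number comparisons of the 10 genes are given with and without them.

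**Figure D1:**
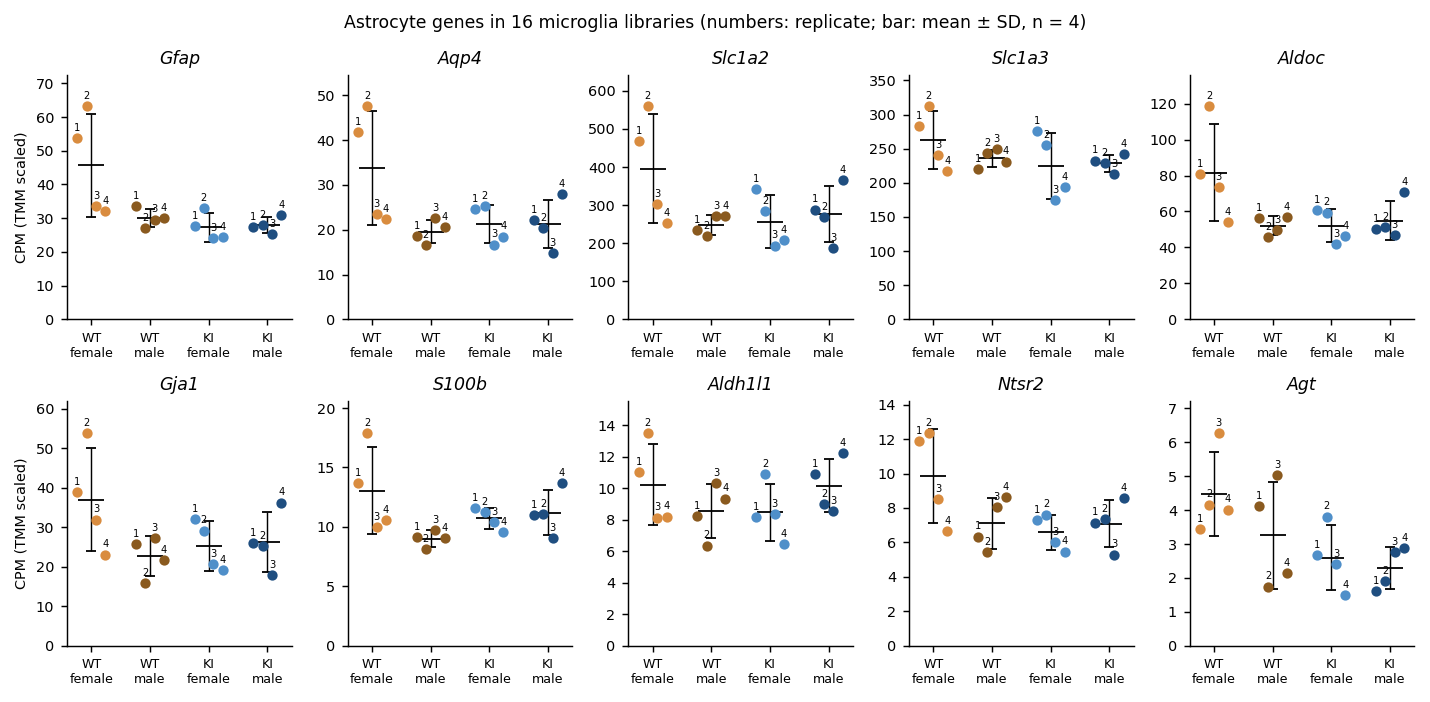
CPM (vertical axes, linear from 0) of each of the 10 astrocyte genes in the 16 libraries, by genotype (KI, APP-NL-G-F) and sex. Points are libraries numbered by replicate, and the bars give the mean ± SD of 4 libraries. WT female replicates 1 and 2 lie above the other libraries for Gfap, Aqp4, Slc1a2 and Aldoc, among others, while Agt is spread differently.

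Members varied together across libraries. Over the 16 libraries, the log2 CPM of each gene was correlated with the mean of the other 9, as a description of libraries that share preparation and normalisation. Aqp4 (r = 0.961), Slc1a2 (0.958), Gja1 (0.956), Aldoc (0.934) and Ntsr2 (0.930) followed the others most closely. Gfap (0.891), S100b (0.845), Slc1a3 (0.793) and Aldh1l1 (0.755) came next, and Agt followed least (0.452, or 0.218 within groups). These Pearson values include WT female replicates 1 and 2, which stood apart. Rank correlations (Spearman) were lower for every gene but Agt (0.515), for example 0.665 for S100b and 0.568 for Aldh1l1. The span from the lowest to the highest library also differed: 4.197-fold for Agt, 3.38-fold for Gja1, 2.995-fold for Slc1a2 and 1.78-fold for Slc1a3. The ratio of Slc1a2 to Slc1a3 CPM accordingly ranged from 0.879 (APP-NL-G-F male replicate 3) to 1.79 (WT female replicate 2).

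The genes outside the list whose levels were most like the mean of the 10 over the 16 libraries were Slc6a11 (Pearson r = 0.965), a GABA transporter of astrocytes, Ptprz1 (0.965), a receptor phosphatase of astrocytes and precursor cells, and Mmd2 (0.957). Mlc1 (0.957), a membrane protein of perivascular endfeet, Kcnj10 (0.956), the potassium channel of astrocytes, and Tmem47 (0.951) came next. Atp1b2 (0.937), a subunit of the sodium pump, Acsl3 (0.931), a fatty acid activating enzyme, and Timp3 (0.930), an inhibitor of matrix proteases, followed. Taken within the groups, the correlations of these genes ran from 0.907 to 0.973. Their rank correlations (Spearman) over the 16 libraries ran from 0.768 for Acsl3 to 0.947 for Slc6a11.

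Genotype over both sexes addressed whether RNA of the 10 astrocyte genes in the microglia preparation differed between APP-NL-G-F and WT. Calls needed an FDR (Benjamini-Hochberg, over all tested genes) under 0.1 together with a log2 fold change beyond 0.5 in size, from edgeR's quasi-likelihood test with a term for sex. None of the 10 genes was called (0 of 10, against 8.64% of all tested genes), and 2 had an unadjusted p below 0.05, against 24.1% of all tested genes. 8 of the 10 log2 fold changes were below 0, with a median of -0.25, where the median of all tested genes was -0.00144.

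Gfap averaged 37.9 ± 13.2 CPM in the 8 WT and 27.6 ± 3.17 CPM in the 8 APP-NL-G-F libraries (mean ± SD). The log2 fold change of Gfap, -0.43 with a standard error of 0.141 (FDR 0.0651), passed the FDR and not the fold threshold. Agt averaged 3.87 ± 1.47 and 2.45 ± 0.764 CPM, and its log2 fold change, -0.63 with a standard error of 0.236 (FDR 0.102), passed the fold threshold and narrowly missed the FDR. Both were the members with the smallest p. S100b (0.018) and Aldh1l1 (0.00177) had log2 fold changes close to 0. Without WT female replicates 1 and 2 the median of the 10 was 0.00320 and 0 of 10 were called, against 4.73% of all tested genes in that fit.

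Within females, 3 of the 10 genes were called lower in APP-NL-G-F than in WT (4.33% of all tested genes were called lower and 7.15% called in either direction). These were Gfap, Aldoc and Aqp4. All 10 log2 fold changes were below 0, with a median of -0.60 against 0.00103 over all tested genes, and 7 had an unadjusted p below 0.05 in the lower direction, where 11.1% of all tested genes did. Without WT female replicates 1 and 2, 0 of 10 were called, 8 of 10 were below 0 and the median was -0.11. The share of all tested genes called was also lower in that fit, at 1.67%, so a count of 0 of 10 is near it.

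Gfap was at 53.9, 63.1, 33.7 and 32.0 CPM in WT females and at 27.6, 33.1, 24.03 and 24.3 CPM in APP-NL-G-F females. 3 of the 4 APP-NL-G-F libraries lay below the lowest WT library, and replicate 2 lay between the WT values. The log2 fold change was -0.74 (standard error 0.172, FDR 0.0158). It was -0.63 without WT female replicate 1 (FDR 0.0864) and -0.54 without replicate 2 (FDR 0.0744), still called, and -0.26 without both (FDR 0.499).

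Aldoc was at 80.6, 118, 73.7 and 54.0 CPM in WT females and at 60.7, 59.3, 42.0 and 46.3 CPM in APP-NL-G-F females. The groups overlapped through WT replicate 4, which was below APP-NL-G-F replicates 1 and 2. The log2 fold change was -0.64 (standard error 0.185, FDR 0.0501). The call was lost without WT female replicate 1 (-0.63, FDR 0.135), without replicate 2 (-0.40, FDR 0.223) and without both (-0.28, FDR 0.648). It was also lost without APP-NL-G-F female replicate 3 (FDR 0.165) or 4 (FDR 0.138) and with a robust dispersion (FDR 0.104).

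Aqp4 was at 41.7, 47.5, 23.6 and 22.3 CPM in WT females and at 24.6, 25.2, 16.7 and 18.5 CPM in APP-NL-G-F females. The first 2 WT libraries were well above the rest, and WT replicates 3 and 4 lay within the APP-NL-G-F range. The log2 fold change was -0.66 (standard error 0.226) with an FDR of 0.09997, just inside the threshold. The call was lost with 2 other normalisations (FDR 0.101 and 0.107), limma voom (0.149), a filter of 10 counts (0.103) and a robust dispersion (0.163), and with any of 13 of the 16 libraries left out, and was kept with DESeq2 (0.0520). It was -0.10 without WT female replicates 1 and 2 (FDR 0.930).

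Slc1a2 was at 468, 559, 302 and 252 CPM in WT females and at 341, 284, 194 and 207 CPM in APP-NL-G-F females. The difference of -0.62 (standard error 0.231, FDR 0.129) was nearly as large as those of the called genes and did not pass. Slc1a3 differed less, at 263 ± 42.4 against 225 ± 48.4 CPM (SD, n = 4 each), or -0.22 on the log2 scale (FDR 0.326).

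Of the other members, Agt had the most negative value in females, -0.78 (standard error 0.329, FDR 0.180), with levels of 3.44, 4.16, 6.28 and 4.02 CPM in WT and 2.68, 3.81, 2.41 and 1.497 CPM in APP-NL-G-F. 3 of the 4 APP-NL-G-F libraries lay below the lowest WT library, and its highest WT library was replicate 3. Unlike the called genes, the estimate for Agt was -0.98 without WT female replicates 1 and 2. Ntsr2 (-0.57, FDR 0.112), Gja1 (-0.54, FDR 0.215), S100b (-0.27, FDR 0.365) and Aldh1l1 (-0.26, FDR 0.496) did not pass. The ranges of the genotypes overlapped for all 10 genes in each sex, whereas 12.6% of all tested genes in females and 5.01% in males had ranges that did not.

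Within males, none of the 10 genes was called (0 of 10, against 0.252% of all tested genes), and 0 of 10 had an unadjusted p below 0.05, against 11.7%. The log2 fold changes were above 0 for 7 of 10, with a median of 0.11. Gfap was at 33.6, 27.0, 29.6 and 29.96 CPM in WT males and at 27.3, 28.0, 25.3 and 31.0 CPM in APP-NL-G-F males, with a difference of -0.10 on the log2 scale (standard error 0.175, FDR 0.857). The value with the smallest p was that of S100b, 0.32 (standard error 0.165, FDR 0.468), from 9.01 ± 0.684 CPM in WT to 11.2 ± 1.90 CPM in APP-NL-G-F males (SD, n = 4 each).

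**Figure D2:**
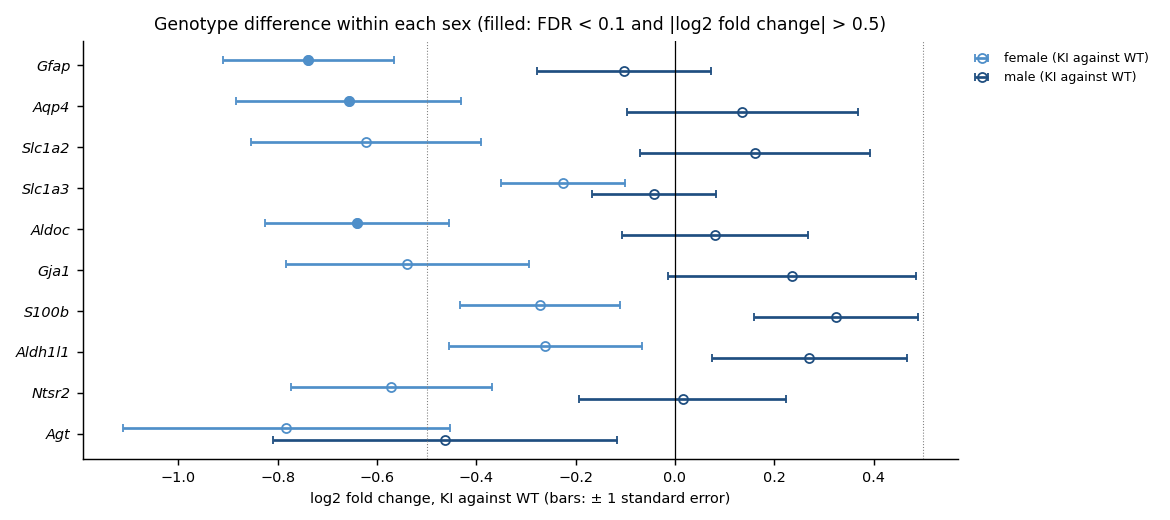
Log2 fold change of APP-NL-G-F (KI) against WT for each astrocyte gene, within females and within males. Points are edgeR estimates, bars are ± 1 standard error, filled points were called and dotted lines mark the fold threshold. The female estimates lie below 0 for all 10 genes, with Gfap, Aqp4 and Aldoc filled, and the male estimates lie on both sides of 0.

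The difference between the sexes was tested by the genotype-by-sex interaction. All 10 estimates were negative (female difference minus male difference), with a median of -0.62 against 0.00368 over all tested genes, and 6 of 10 had an unadjusted p below 0.05, against 5.94% of all tested genes (4.07% in the negative direction). None was called (0 of 10, against 0.0274% of all tested genes), the smallest FDR being that of Aldoc at 0.649 for an estimate of -0.72 (standard error 0.263). A genotype difference that is particular to females was therefore not shown for these genes. This comparison shares its libraries with those within each sex, and its median was -0.25 without WT female replicates 1 and 2.

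Sex, with genotype as a term, gave 0 of 10 calls (against 0.0604% of all tested genes) and 1 unadjusted p below 0.05 (Aqp4), where 6.56% of all tested genes had one. The estimates were above 0 (higher in females) for 9 of 10, with a median of 0.28, and the exception was Aldh1l1 at -0.00700. Without the 2 WT female libraries the median was 0.037. In libraries numbered 9 to 16 alone, which hold replicates 3 and 4 of every group, the median was -0.12, and in libraries 1 to 8, which hold replicates 1 and 2, it was 0.57. The labels number the libraries and do not call these 2 sets of libraries a batch.

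Libraries 9 to 16 against 1 to 8 were compared within the groups. None of the 10 genes was called (0 of 10, against 0.713% of all tested genes), 9 estimates were below 0, and the median was -0.21. 3 had an unadjusted p below 0.05 (Gfap, Slc1a2 and Slc1a3), against 15.6% of all tested genes. With WT female replicates 1 and 2 left out, 7 were below 0, the median was -0.060 and 0 of 10 were called, against 0.284% of all tested genes. Within libraries 1 to 8, the female genotype difference was called for 6 of the 10 genes (Gfap -0.96, Aqp4 -0.85, Slc1a2 -0.73, Aldoc -0.74, Gja1 -0.60 and Ntsr2 -0.72), where 9.68% of all tested genes were called. Within libraries 9 to 16 it was called for 0 of 10, against 1.78% of all tested genes, with Gfap at -0.43 (FDR 0.158) and Aldoc at -0.52 (FDR 0.301). Each set holds 2 libraries of a group, and WT female replicates 1 and 2 are both in the set numbered 1 to 8.

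**Figure D3:**
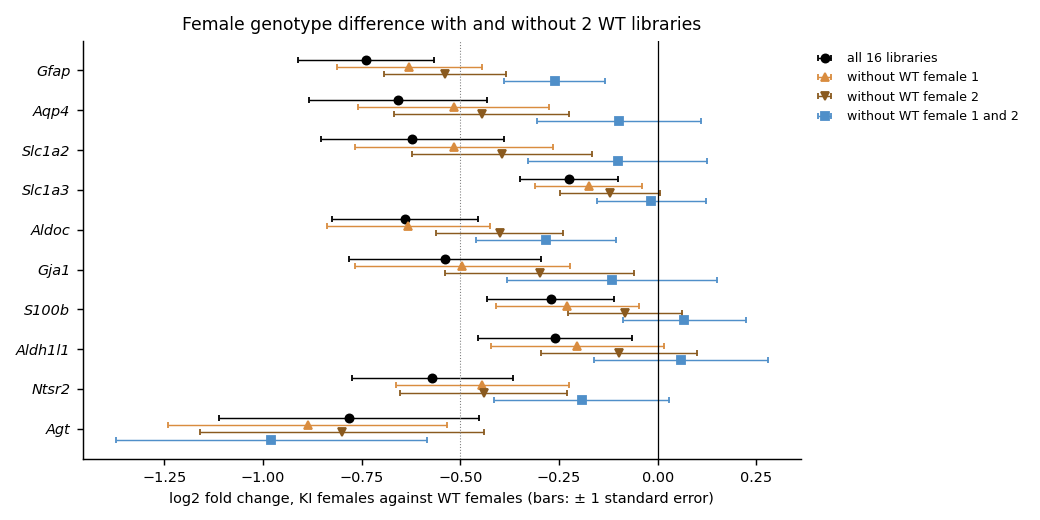
Log2 fold change of APP-NL-G-F (KI) females against WT females for each astrocyte gene with all 16 libraries, without WT female replicate 1, without replicate 2 and without both. Bars are ± 1 standard error and the dotted line marks the fold threshold. With both left out the estimates of Gfap, Aldoc and Aqp4 move to between -0.28 and -0.10, while Agt stays below the threshold line at -0.98.

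Other genes of astrocyte function were read from lists. Beside the calls in these lists and in those of other cell types stand the shares of all tested genes. These were 4.33% called lower and 7.15% called in either direction in females, 0.252% in males, 8.64% over both sexes and 0.713% for the library number. Without WT female replicates 1 and 2 they were 1.67% in females, 0.568% in males and 4.73% over both sexes. A single call in a short list is not read as a result about that list. Of 12 genes for glutamate, GABA and ion handling, Kcnj10 was called lower in APP-NL-G-F females (-0.52, standard error 0.133, FDR 0.0291) and 11 of 12 were below 0 with a median of -0.36. The 2 most abundant genes of the list, Glul, which makes glutamine from glutamate (1105 CPM), and Glud1 (177 CPM), are also used by other cells, and neither was called. Of 10 endfoot and membrane partners, Slco1c1, a thyroid hormone and organic anion carrier also found in brain endothelium, was called lower (-0.93, FDR 0.0869), 8 of 10 were below 0, and the median was -0.46. Dtna (19.0 CPM), part of the complex that anchors Aqp4, was not called. In males 8 of the 10 were above 0 with a median of 0.27 and 0 calls, Slco1c1 being at 0.97 (FDR 0.259), and without WT female replicates 1 and 2 Slco1c1 was called higher in males.

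Of 31 other astrocyte-enriched genes, 29 were below 0 in females with a median of -0.35, and 3 were called lower: Fam107a (-0.74, FDR 0.0456), Htra1, a secreted protease (-0.67, FDR 0.0410), and Mt3, a metal-binding metallothionein (-0.63, FDR 0.0658). The list's most abundant genes, the matrix protein Sparcl1 (246 CPM) and the carboxypeptidase Cpe (121 CPM), were not called. Over both sexes 26 of the 31 were below 0 and 0 were called, and within males 12 of 31 were below 0 and 0 were called. Without WT female replicates 1 and 2 the female medians were -0.052 for glutamate, GABA and ion handling, 0.016 for the endfoot list and -0.13 for the other astrocyte-enriched genes. None of Kcnj10, Slco1c1, Fam107a, Htra1 and Mt3 was called in females in that fit, and 1 other gene of the last list, Lfng, named here after its values were seen, was called lower there and not with all libraries.

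Of 33 reactive astrocyte genes, 28 were tested. In females 3 were called lower, Vim, an intermediate filament that microglia and vessels also express (-0.58, FDR 0.0225), Serping1, the C1 inhibitor (-0.97, FDR 0.0792), and Clcf1, a cytokine (-0.98, FDR 0.00268), 23 of 28 were below 0 and the median was -0.31. Over both sexes Clcf1 was called lower (-0.80, FDR 0.000895) and Amigo2, an adhesion molecule, higher (0.61, FDR 0.0539). Fkbp5, a glucocorticoid-induced chaperone, was lower in libraries 9 to 16 (-0.72, FDR 0.0942). Clcf1 was still called in females and over both sexes without WT female replicates 1 and 2, while the calls of Vim, Serping1, Amigo2 and Fkbp5 were lost. The female median of the list was -0.31 in that fit too, with 19 of 27 tested genes below 0. The most abundant genes of this list, H2-D1 (464 CPM) and Stat3 (158 CPM), are expressed by many cell types, and the summed list followed the 10 astrocyte genes weakly (r = 0.241 over 16 libraries).

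Agt and Ntsr2 belong to peptide systems. Of 11 angiotensin pathway genes, 6 were tested, and the receptors Agtr1a, Agtr1b, Agtr2 and Mas1 and the renin gene Ren1 were below the filter on counts. Enpep, the aminopeptidase that trims angiotensin II and is found on pericytes, was called lower in females (-1.02, standard error 0.333, FDR 0.0820), a call lost without WT female replicates 1 and 2, and the most abundant genes, the aminopeptidase Lnpep (294 CPM) and the prorenin receptor Atp6ap2 (81.4 CPM), were not called. The neurotensin gene Nts was below the filter, and the receptors Sort1 (300 CPM) and Sorl1 (144 CPM), which bind many other ligands, were not called in any comparison. Of 20 paralogs of the members' families 17 were tested, and Slc1a1, a glutamate transporter mainly of neurons, was called higher in APP-NL-G-F over both sexes (0.59, FDR 0.0202), also without WT female replicates 1 and 2. The paralogs Slc1a6 and Aqp9 were below the filter, and Aldoa (211 CPM) and Nes (18.8 CPM) were the most abundant.

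Markers of other cell types were read beside the astrocyte genes, since a bead isolation can carry over several. The 8 endothelial genes, of which Pecam1 was the most abundant (32.6 CPM), summed to 167, 204, 119 and 88.2 CPM in WT females and to 66.7, 55.9, 68.1 and 65.7 CPM in WT males. The sums were 86.8 ± 8.82 CPM (SD, n = 4) in APP-NL-G-F females and 78.6, 111, 76.0 and 100.1 CPM in APP-NL-G-F males. As for the astrocyte genes, WT female replicates 1 and 2 held the highest sums. In females 6 of the 8 endothelial genes were called lower in APP-NL-G-F, with a median of -0.96, and without the 2 libraries 0 of 8 were called and the median was -0.32. In males all 8 were above 0, with a median of 0.82, 7 had an unadjusted p below 0.05 and 1, Abcb1a, the efflux pump of the blood-brain barrier, was called higher.

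The 8 genes of pericytes and fibroblasts, with Rgs5 the most abundant (20.6 CPM), also had their highest sums in WT female replicates 1 and 2 (119 and 117 CPM, 32.6 to 85.7 CPM elsewhere). In females 2 of the 6 tested were called lower, among them Rgs5 (-1.09, FDR 0.0291), and the median was -0.57. Without the 2 libraries 0 of 6 were called and the median was -0.32. In males 6 of 6 were above 0, with a median of 0.37 and 0 calls. In all, 6 of the 17 other lists had WT female replicates 1 and 2 as their top pair, the remaining 4 being the astrocyte-type lists for glutamate and ion handling, endfeet, other astrocyte-enriched genes and paralogs. In females 6 of 8 endothelial and 2 of 6 pericyte and fibroblast genes were thus called lower beside the astrocyte genes, Pecam1 not among them (-0.17, FDR 0.337), and their part in the result was not tested.

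The 10 neuron genes, led by Map2 (192 CPM), summed to 469 ± 17.0 CPM in WT females, 607 ± 52.5 CPM in APP-NL-G-F females, 496 ± 69.7 CPM in WT males and 634 ± 98.7 CPM in APP-NL-G-F males (SD, n = 4 each), so that the means were higher in APP-NL-G-F in both sexes. In females 2 of 10 were called higher and 0 lower, with a median of 0.33. Leaving out WT female replicates 1 and 2 gave 0 calls of 10 and a median of 0.29, so the calls were lost while the median moved little. The 9 oligodendrocyte genes, led by Mbp (113 CPM), had 0 of 9 below 0 in each of the female, male and pooled genotype comparisons, with a pooled median of 0.39 and 1 call. Without the 2 libraries the pooled median was 0.64 and 5 of 9 were called higher. The 5 neuroblast genes, led by Dcx (21.5 CPM), had 1 call higher over both sexes, Dcx, which was also called without the 2 libraries.

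Over the 16 libraries, the log2 sum of the 10 astrocyte genes had a correlation of 0.956 with that of the other astrocyte-enriched genes, 0.749 with endothelial, 0.515 with oligodendrocyte, -0.241 with neuron and 0.018 with microglia genes. Without WT female replicates 1 and 2 (14 libraries) the value was 0.890 for other astrocyte-enriched, 0.278 for endothelial, 0.348 for oligodendrocyte and 0.122 for neuron genes. Within groups it was 0.937, 0.688, 0.873 and 0.101 in the same order, so the oligodendrocyte genes followed the astrocyte genes more closely within groups than over all libraries. Olfactory ensheathing cell genes, led by Frzb (6.85 CPM), summed to 12.1 to 31.6 CPM (r = 0.547, or 0.258 over the 14 libraries), oligodendrocyte precursor genes, led by Cspg4 (5.93 CPM), to 18.3 to 30.5 CPM (r = -0.042), and ependymal genes, led by Foxj1 (1.01 CPM), to 0.813 to 3.14 CPM (r = 0.444, or 0.091 over the 14). Border macrophage genes, led by Mrc1 (344 CPM), summed to 405 to 849 CPM with r = -0.091. The 10 microglia markers had 0 calls in each of the 6 comparisons, with a female genotype median of 0.032.

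**Figure D4:**
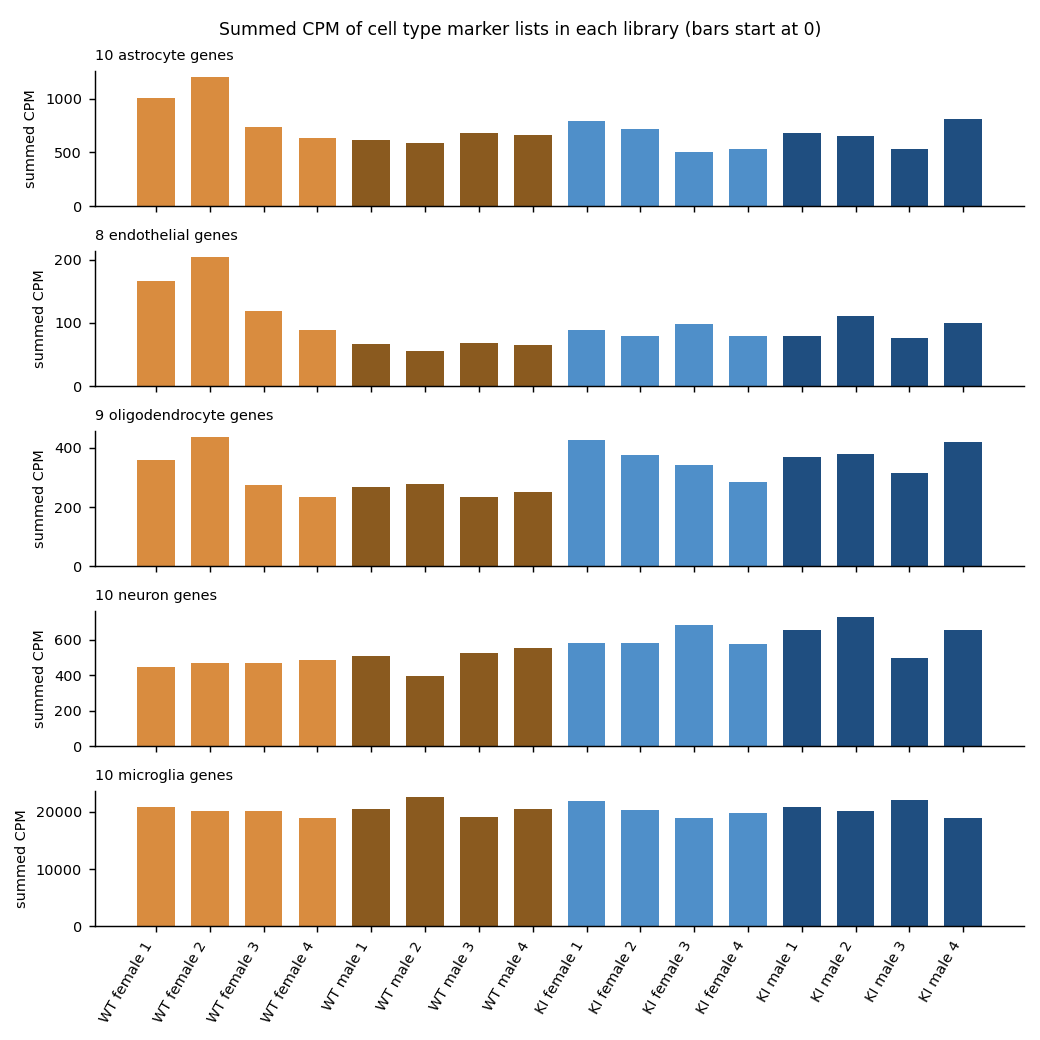
Summed CPM (vertical axes, linear from 0) of the 10 astrocyte genes and of endothelial, oligodendrocyte, neuron and microglia marker lists in each of the 16 libraries, coloured by group (KI, APP-NL-G-F). The astrocyte and endothelial sums are highest in WT female replicates 1 and 2, the neuron sums are not, and the microglia sums lie between 18898 and 22559 CPM in all libraries.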

How the data were processed

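RNA of CD11b-selected olfactory bulb microglia was depleted of ribosomal RNA, made into stranded libraries and sequenced paired-end. The authors aligned reads (STAR, GRCm39 with a human App sequence, gencode vM32). The deposited values are raw counts per gene, with 1 column per library and 0 unused columns. The p-values measure the spread between these libraries, and the sources mention technical replicates without saying which.

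Counts were analysed in R 4.3.3 with edgeR 4.0.16, limma 3.58.1 and DESeq2 1.42.0. The filter kept genes that reached 5 counts in 8 or more of the 16 libraries, holding 99.9% of counts, and normalised by TMM. Tests used glmQLFit and glmQLFTest on all 16 libraries, with FDR below 0.1 and absolute log2 fold change above 0.5. Correlations used log2 CPM with a prior count of 2. Over 3 counts, the level that a count of 0 allows, every member was detected in every library. Gene positions and exon lengths came from gencode vM39 on GRCm39 (205 of 205 list genes matched), and promoter windows from RefSeq on GRCm38.p6. The fits were tested on simulated data.

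The members, gene lists and tests were chosen with earlier results of these data known. Named genes are the 10 members, called genes of the astrocyte-type lists, the 2 most abundant genes of each list, and the 10 genes most like the members; for other cell types, the summed CPM and the most abundant gene. Some genes that this rule names are not reported here. Abcb1a was named after its values were seen. Other normalisations, tests, filters, thresholds, covariates, libraries 1 to 8 or 9 to 16 alone and single libraries left out were tried. Leaving out WT female replicates 1 and 2 together, and libraries 1 to 8 or 9 to 16 within each sex, were chosen after seeing the data.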

Additional observations from a re-analysis of the deposited data

Results flagged for a closer look

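The summed CPM of the neuron genes was set apart in 1 library: APP-NL-G-F female replicate 3 was at 686 CPM and the other 3 libraries of its group at 578 to 583 CPM, a gap of 0.947 of the group's range. Of 116 groups examined for such a gap this was the single one found, where 5.8 would be flagged by chance. Abcb1a, the drug efflux pump of brain endothelium, differed between the sexes in its genotype difference. Its level was 15.3 ± 7.51 CPM in WT females, 6.22 ± 0.458 in APP-NL-G-F females, 3.70 ± 0.730 in WT males and 8.94 ± 1.95 in APP-NL-G-F males (SD, n = 4 each). Its female log2 fold change was -1.28 (FDR 0.00604), its male one 1.30 (FDR 0.0905), and the interaction was -2.58 (standard error 0.380, edgeR FDR 0.0233). Of all tested genes, 0.0274% were called in the interaction. Without WT female replicates 1 and 2, Abcb1a was called in males and in the interaction and not in females. The other endothelial genes went the same way: all 8 interaction estimates were below 0, with a median of -1.78.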

How the results depend on the processing

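Shares in parentheses are those of all tested genes called in the same fit. Of the 10 astrocyte genes, the number called in females was 7 with no filter on low counts (5.42%), 1 at an FDR below 0.05 (4.57%), 1 with a robust dispersion (6.4%), 6 in libraries 1 to 8 alone (9.68%), 0 in libraries 9 to 16 alone (1.78%) and 0 without WT female replicates 1 and 2 (1.67%); with single libraries left out it ran from 1 to 6, namely 1 without WT female replicate 1 (3.29%) or 2 (4.05%) or APP-NL-G-F female replicate 3 (3.85%) or 4 (5.74%), 5 without APP-NL-G-F male replicate 3 (8.77%) and 6 without WT female replicate 4 (11.7%). Over both sexes it was 1 with DESeq2 (8.84%), no filter (4.75%), the FDR alone (14.8%), a robust dispersion (8.24%) or libraries 1 to 8 alone (13.5%), and 0 to 1 with single libraries left out (6.1% to 12.1%). The interaction gave 5 with no filter (1.19%), and sex gave 3 in libraries 1 to 8 alone (1.97%). In males and for the library number it was 0 under every alternative run. The labels do not say that the replicate numbers pair the libraries, and the values did not settle it. Of 24 pairs with the same number, 8 had a correlation of deviations above 0.1. The 24 ran from -0.330 to 0.292 with a median of 0.034, and 8 of 16 libraries correlated best with their own number. With the number as a replicate block, 2 genes were called in females (6.64%, Aqp4 at FDR 0.101) and 0 in the other 4 comparisons. The number of all tested genes called ran over the alternatives from 80 to 2692 over both sexes (1574 as reported), 306 to 2136 in females (1304), 5 to 2101 in males (46), 1 to 470 for the interaction (5), 5 to 366 for sex (11) and 52 to 671 for the library number (130).

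Signs turned as follows, none of them for a called value. For sex in libraries 9 to 16 alone the values were Gfap -0.036, Aqp4 -0.10, Slc1a2 -0.21, Slc1a3 -0.18, Aldoc -0.075, Gja1 -0.14, S100b -0.035 and Ntsr2 -0.21, and in libraries 1 to 8 alone Aldh1l1 was 0.33. Without WT female replicates 1 and 2 the genotype values were 0.040 for Aqp4, 0.055 for Slc1a2 and 0.091 for Gja1 over both sexes, 0.067 for S100b and 0.059 for Aldh1l1 in females, and 0.029 for Slc1a3 in the interaction; for sex they were -0.0010 for Slc1a2, -0.030 for Slc1a3 and -0.017 for Ntsr2, and for the library number 0.044 for Aldh1l1 and 0.023 for Ntsr2. The genotype value of S100b was -0.073 in libraries 1 to 8, that of Aldh1l1 -0.019 in libraries 9 to 16, and that of Ntsr2 in males -0.25 in libraries 9 to 16. With single libraries left out, the genotype value ran from -0.052 to 0.13 for S100b and from -0.071 to 0.097 for Aldh1l1, and in males from -0.10 to 0.14 for Ntsr2, -0.033 to 0.28 for Aqp4, -0.0081 to 0.32 for Slc1a2 and -0.078 to 0.15 for Aldoc; for sex it ran from -0.095 to 0.063 for Aldh1l1. The causes were not tested. Depth limits Agt most, with 19 to 88 counts.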
